A study of Drosophila melanogaster with 3 samples.

Results

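The pair-rule genes eve, h, run, ftz, odd, prd, slp1, slp2 and opa were taken by name from the gene annotation of the dm6 build of the Drosophila melanogaster genome, and all 9 were found among 13945 protein-coding genes. The gene h (hairy) carries the symbol hry there and was matched through its older symbol. The data are chromatin immunoprecipitation sequencing (ChIP-seq) of Erect wing (Ewg), a DNA-binding transcription factor and the fly homologue of vertebrate NRF-1. Ewg carried eGFP at its C-terminal end, was expressed from a transgene in the strain ewg-GFP, and was recovered with an anti-GFP antibody. Chromatin came from whole embryos of both sexes at 0 to 14 hours of development, in 3 biological replicates that form 1 group. The series holds no sample without the tagged protein and no untreated sample, so the pair-rule genes are set against all protein-coding genes and never against another condition. What drives the transgene, and in which cells, the labels do not say. A peak in whole embryos cannot be assigned to a cell type or to an hour within that window.

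Pair-rule genes divide the early Drosophila embryo into segments. Maternal and gap proteins set up their striped transcription through separate stripe enhancers that can lie several kilobases from the gene, and the pair-rule proteins then pattern each other and the segment polarity genes such as engrailed and wingless. Several of them are transcribed again later, in the developing nervous system among other tissues. Ewg is best known for its roles in neurons and in flight muscle.

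The authors deposited lists of regions with a signal and a summit, the base of highest signal, for each region. Their optimal set, selected by the irreproducible discovery rate (IDR, agreement between replicates), holds 6793 peaks on dm6. Their permissive lists hold peaks together with background, and the list from pooled replicates has 30000 regions. The optimal set was the 6793 strongest regions of that pooled list, with signals of at least 141.8. A promoter summit here lies 500 bp or less from a transcript start of the gene. Distances are counted from the nearest start of the named gene, negative upstream and positive downstream.

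The windows of 201 bases centred on 6 summits are shown because they carry most of what follows. They are the 2 strongest summits at any pair-rule gene (opa -279 and the summit between slp1 and slp2), the promoter summits of the paralogous pair slp1 and slp2, and 2 downstream summits that differ in motif content (odd +7307 and slp1 +2216). The sequence is that of the RefSeq dm6 assembly, read 5′ to 3′ on the strand of the gene. Capitals mark TGCGC or its reverse complement, one arm of the palindrome bound by NRF-1. TGCGCA reads the same on both strands, so a single TGCGCA is counted as 2 overlapping arms. In order the windows are chr3R:4852434-4852634 on the plus strand, chr2L:3832425-3832625 (plus), chr2L:3825430-3825630 (plus), chr2L:3836543-3836743 (plus), chr2L:3599349-3599549 (minus) and chr2L:3827791-3827991 (plus). All 6 lie outside the spans of the annotated pair-rule genes.
opa -279: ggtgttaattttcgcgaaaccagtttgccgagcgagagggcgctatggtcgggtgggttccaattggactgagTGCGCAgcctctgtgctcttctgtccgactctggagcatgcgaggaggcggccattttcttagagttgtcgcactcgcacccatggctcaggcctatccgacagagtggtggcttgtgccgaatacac
slp1 to slp2 intergenic: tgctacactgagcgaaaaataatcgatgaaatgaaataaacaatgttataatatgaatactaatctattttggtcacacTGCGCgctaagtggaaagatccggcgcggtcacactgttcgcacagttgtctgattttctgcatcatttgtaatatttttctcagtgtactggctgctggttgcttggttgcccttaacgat
slp1 -145: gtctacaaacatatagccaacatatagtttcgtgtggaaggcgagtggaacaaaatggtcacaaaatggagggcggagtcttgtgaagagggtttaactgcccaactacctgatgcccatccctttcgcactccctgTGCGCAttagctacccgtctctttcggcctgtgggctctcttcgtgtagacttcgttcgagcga
slp2 -197: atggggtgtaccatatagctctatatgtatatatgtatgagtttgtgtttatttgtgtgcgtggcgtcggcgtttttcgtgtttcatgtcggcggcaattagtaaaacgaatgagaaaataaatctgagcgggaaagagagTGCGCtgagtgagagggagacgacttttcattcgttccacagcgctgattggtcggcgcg
odd +7307: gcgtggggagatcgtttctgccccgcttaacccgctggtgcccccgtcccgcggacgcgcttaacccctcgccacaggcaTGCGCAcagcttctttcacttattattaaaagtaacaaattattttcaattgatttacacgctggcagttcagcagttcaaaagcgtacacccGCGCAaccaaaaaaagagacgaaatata
slp1 +2216: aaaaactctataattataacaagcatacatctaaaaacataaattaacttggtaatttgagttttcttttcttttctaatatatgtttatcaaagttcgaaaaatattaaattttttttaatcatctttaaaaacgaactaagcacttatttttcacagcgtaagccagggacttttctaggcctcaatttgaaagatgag
The opa -279 window has a single TGCGCA, counted on both strands, as has slp1 -145. The odd +7307 window has 3 arms by this count, in a TGCGCA and a separate GCGCA. The slp1 +2216 window, an AT-rich stretch of 25.4% GC, has none.

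Of the 9 pair-rule genes, eve, run, slp1 and opa had an optimal promoter summit. That is 4 of 9 (44.4%, exact 95% interval 13.7 to 78.8), against 26.4% of all protein-coding genes, a background share inside the interval of the pair-rule genes. In the gene span, run alone had an optimal summit (1 of 9, 11.1%, against 15.5% of all genes). Within 10 kb of the gene, eve, run, odd, slp1, slp2 and opa had at least 1 (6 of 9, 66.7%, exact 95% interval 29.9 to 92.5, against 71.4% of all genes). Both of these shares of pair-rule genes lay close to their backgrounds. The genes h, ftz and prd had no optimal summit within 10 kb. In the permissive list, 7 of 9 pair-rule genes had a promoter summit (77.8%, exact 95% interval 40.0 to 97.2, against 46.8% of all genes). In the span 5 of 9 had a summit (55.6%, interval 21.2 to 86.3, against 35.0%) and within 10 kb 9 of 9 had one (interval 66.4 to 100, against 93.0%). Each of these backgrounds lay inside its interval. The permissive promoter summits of ftz and slp2 were listed by replicate 2 alone. The intervals cover the counting of 9 genes and not the variation between embryo collections.

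**Figure D1:**
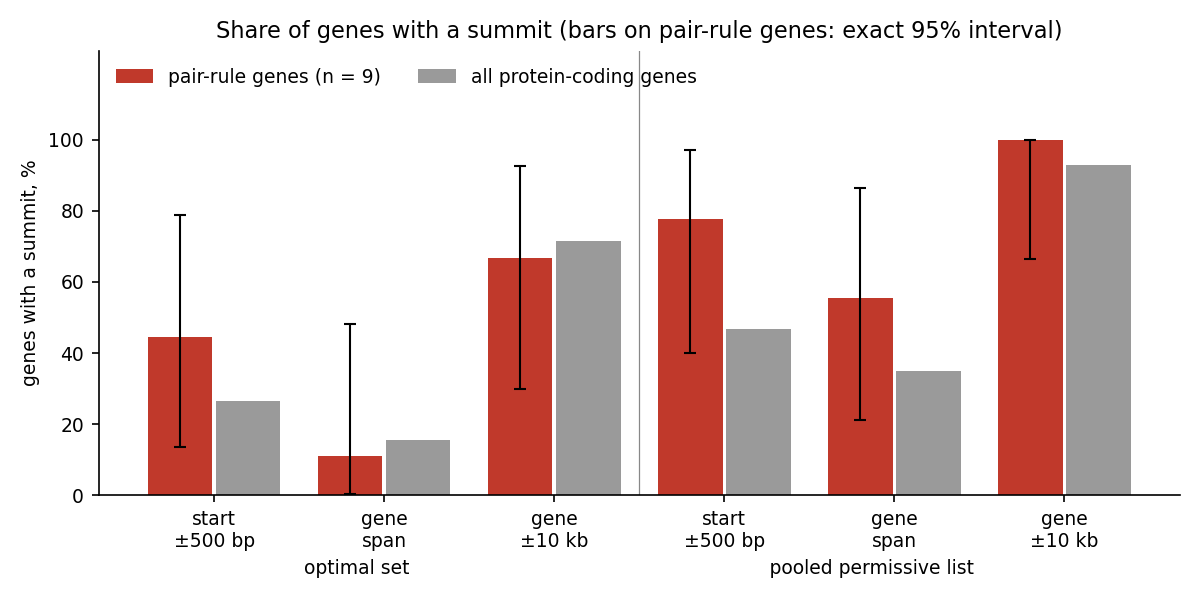
Percentage of genes with a summit within 500 bp of a start, in the gene span, or in and within 10 kb of the gene, in the optimal set (left) and the pooled permissive list (right). Red bars are the 9 pair-rule genes with exact 95% intervals and grey bars are all protein-coding genes; every grey bar falls within the interval of the red bar beside it.

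In total 12 distinct optimal summits and 81 distinct permissive summits lay in or within 10 kb of the pair-rule genes, counting once those that slp1 and slp2 share. The median pair-rule gene had 2 optimal and 9 permissive summits within 10 kb, against 1 and 6 over all protein-coding genes, and the median gene length was 2533 bp against 2166 bp. The density of permissive summits differed among the members. It was highest at h, with 7.24 per 10 kb, followed by eve with 5.12, odd with 4.88, slp2 with 4.48 and slp1 with 4.20. The genes ftz (3.65), run (2.63), opa (2.42) and prd (1.75) had fewer than these. Over the whole genome, including bases far from genes, the density was 2.24 per 10 kb, and prd alone lay below it. The density in windows around other genes was not computed. The gene with the most permissive summits, h, had none in the optimal set.

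**Figure D2:**
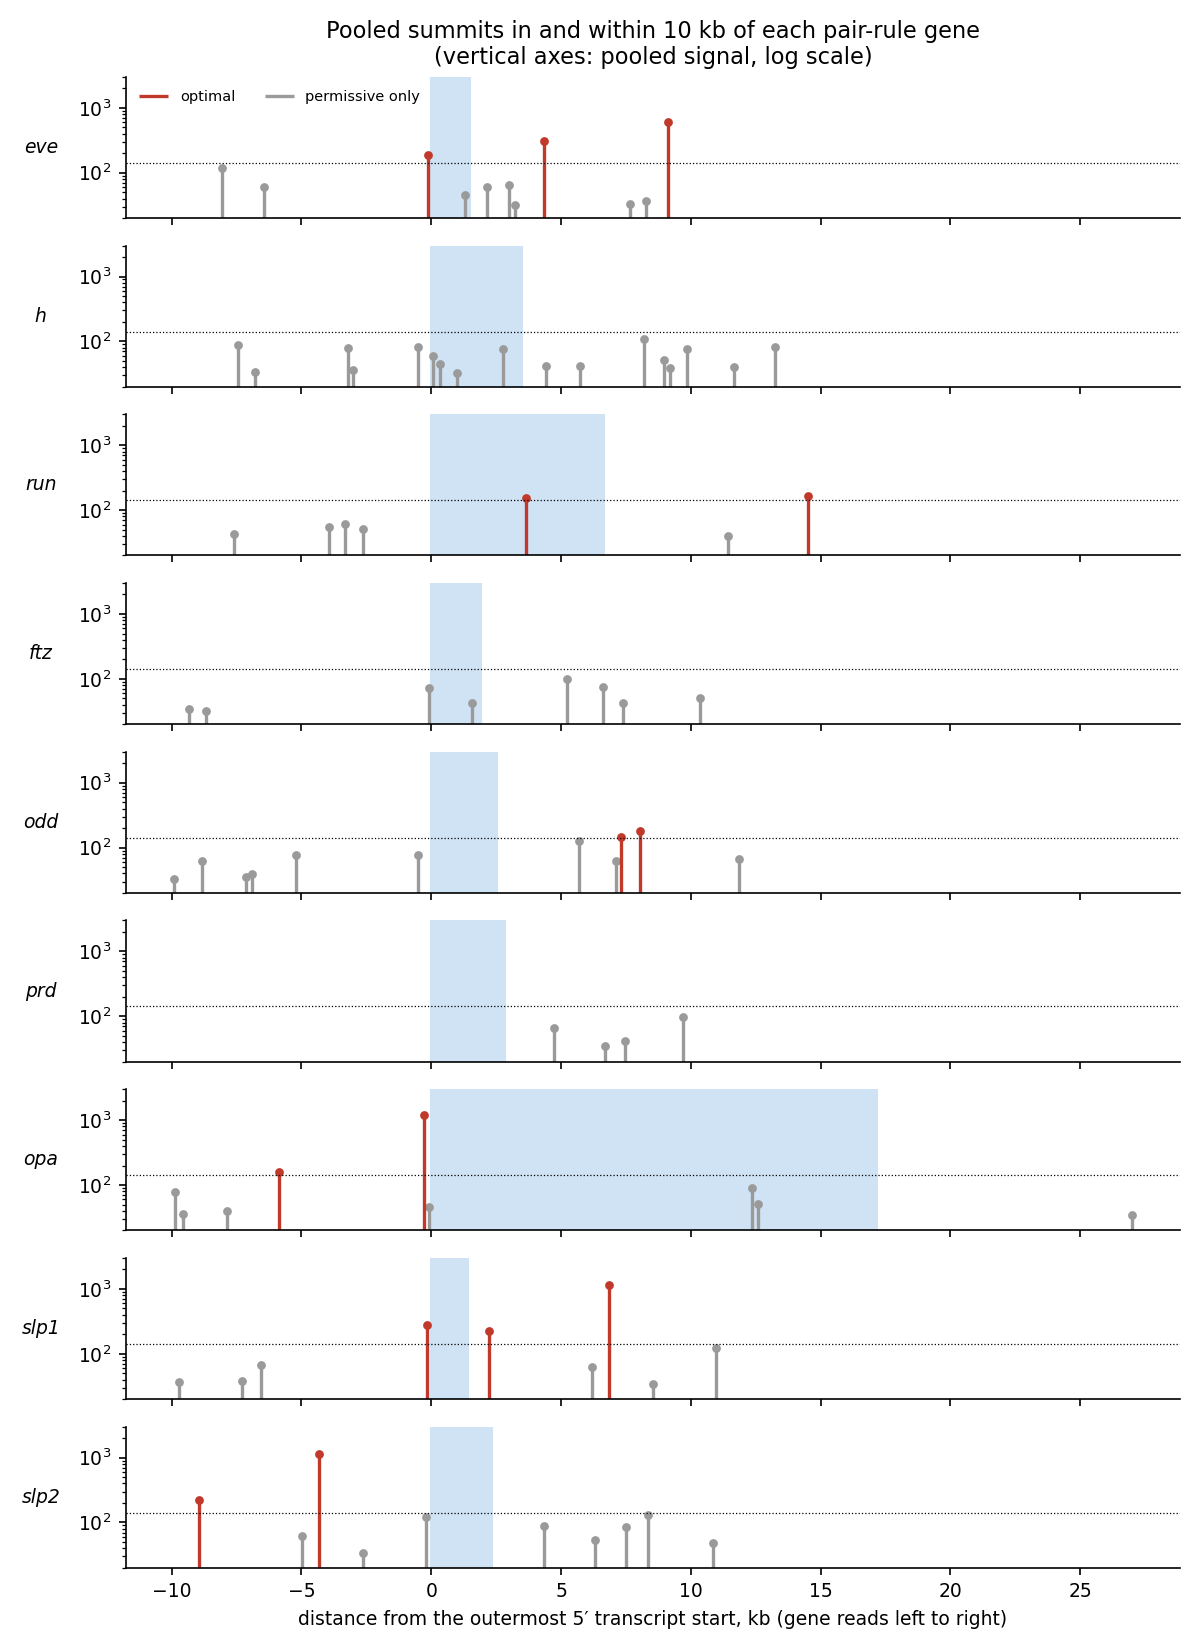
Pooled summits in and within 10 kb of each pair-rule gene, drawn as stems by distance in kb from the outermost 5′ start with the gene reading left to right (horizontal axis) and pooled signal on a log scale (vertical axis). Red stems are optimal and grey stems permissive only, blue marks the gene span and the dotted line the lowest optimal signal, 141.8; the tallest stems stand just upstream of opa and between slp1 and slp2, which share 2 optimal summits.

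To compare replicates, the signal of each summit was divided by the median of that replicate list over 5852 optimal peaks found in all 3 lists (81.4, 124 and 84.1 in replicates 1, 2 and 3). A relative signal of 1 is therefore a typical optimal peak. Levels of the strongest optimal peak in or within 10 kb of a gene fell into 3 steps. The genes h, ftz and prd had no optimal peak there and are outside this order. The intergenic slp1 to slp2 peak (4.01 ± 0.639, SD, n = 3, range 3.27 to 4.41) and the opa promoter peak (4.0 ± 1.2, n = 3, range 3.29 to 5.39) overlapped and did not differ beyond their spread. The strongest peak near eve, at +9133, followed at 2.01 ± 0.551 (n = 3, range 1.5 to 2.59), below both without overlap. The strongest odd peak (0.657 ± 0.352, n = 3, range 0.252 to 0.900) and the strongest run peak (0.539 ± 0.137, n = 3, range 0.401 to 0.676) overlapped each other and lay below the +9133 peak. The middle step rests on that peak, which lies nearest to the start of TER94 and cannot be assigned to eve by position. The eve summit at +4349, whose nearest coding start is that of eve, was at 0.987 ± 0.516 (n = 3, range 0.534 to 1.55). It overlapped the ranges of odd and run, and narrowly that of the +9133 peak. The median pooled signal of the 12 optimal summits was 206.3, against 269.9 over all optimal peaks, and 5 of the 12 lay above that overall median.

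**Figure D3:**
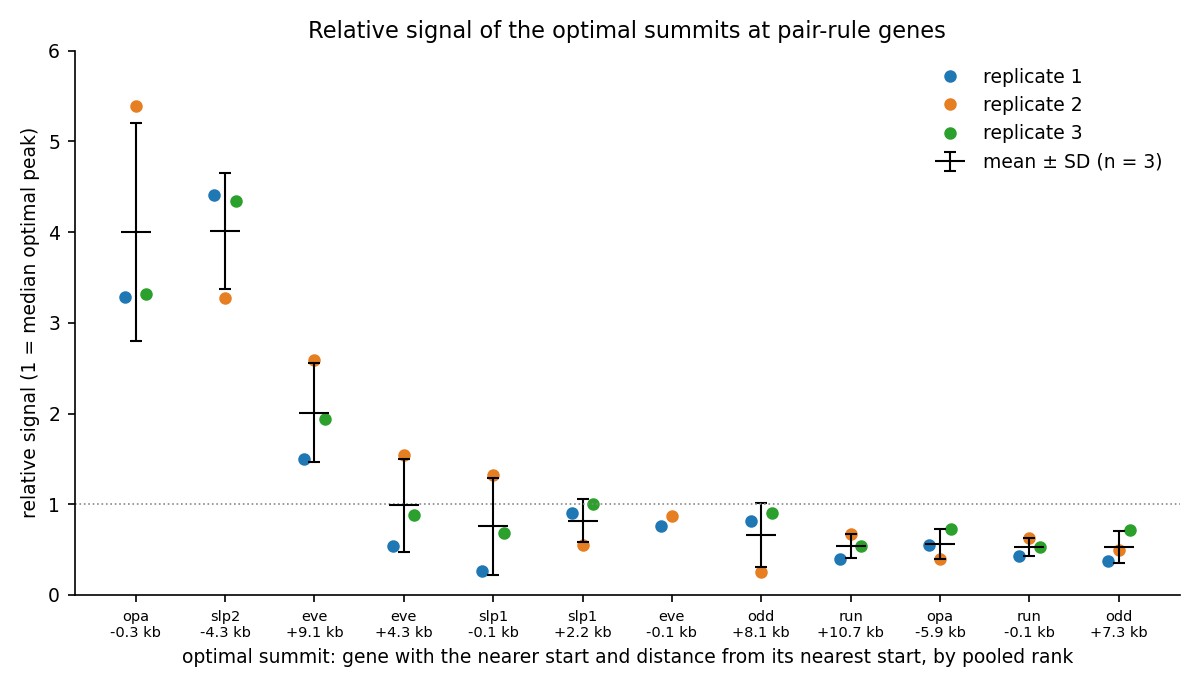
Relative signal (vertical axis, 1 is the median optimal peak of a replicate, dotted line) of the 12 optimal summits at pair-rule genes, ordered by pooled rank. Points are replicates and black bars the mean ± SD over 3 replicates; the eve promoter summit has 2 points and no bar because replicate 3 listed no summit there, the opa and slp1 to slp2 summits stand above 3 in every replicate, and the weakest 5 stay below 1 in every replicate.

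Among the genes usually placed first in the pair-rule hierarchy, eve, a homeodomain repressor, had 3 optimal summits within 10 kb. The gene slp1 also had 3. At each of these genes, 1 of the 3 lay nearer to the start of another gene, TER94 and slp2. The gene eve lies at chr2R:9979319-9980795 on the plus strand. Its promoter summit, at -137 (position 9979182), had a pooled signal of 189.1 (rank 5013). It had a signal of 61.9 in replicate 1 and 107.3 in replicate 2, and replicate 3 listed no region with a summit within 100 bp or 250 bp. The eve promoter summit was found in 2 of 3 replicates, with relative signals of 0.761 and 0.867, and no SD over 3 is given. The summit at +4349, downstream of the 3′ end, had signals of 43.5, 191.5 and 73.9 in replicates 1, 2 and 3, and its relative signal was 0.987 ± 0.516 (n = 3). The strongest, at +9133, had signals of 121.9, 320.7 and 163.4, and was above the typical optimal peak in all 3 replicates. That summit lay 707 bp upstream of the start of TER94, a AAA ATPase gene, which is the nearest coding start, so it cannot be assigned to eve by position. Of the other 8 permissive summits near eve, the strongest (117.5, at -8069) lay 107 bp from the start of CG12134.

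The gene h, a basic helix-loop-helix repressor of the HES family, lies at chr3L:8675759-8679253 on the plus strand and had 17 permissive summits within 10 kb. None ranked among the optimal peaks. Its promoter summits, at +52 and +143 in the non-coding part of an exon, had pooled signals of 59.1 and 44.7. The first had a signal of 16.8 in replicate 1 and 43.6 in replicate 2, the second had 34.7 in replicate 2 alone, and replicate 3 listed neither. A further summit at -501, just outside the promoter window, reached 82.0. The strongest near h, at +7984, reached 108.0 (rank 8748), with 21.8, 48.0 and 38.8 in replicates 1, 2 and 3. All 17 were weaker than any optimal peak. The nearest optimal summit lay 17.3 kb downstream of the gene, with a relative signal of 0.875 ± 0.122 (n = 3).

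The gene run, which encodes a Runt-domain transcription factor that acts both as an activator and as a repressor, lies at chrX:20690670-20697321 on the plus strand. Its optimal promoter summit lay 122 bp upstream of an internal transcript start, in the non-coding part of an exon of a transcript that starts farther upstream. No permissive summit lay within 500 bp of the outermost start. The summit had signals of 34.5, 77.4 and 44.2 in replicates 1, 2 and 3, and a relative signal of 0.525 ± 0.101 (n = 3). A second optimal summit, at +10749 beyond the 3′ end, had signals of 32.6, 83.6 and 45.5. The 2 run summits did not differ beyond their spread (0.525 and 0.539 on the relative scale, with overlapping ranges), and both ranked near the end of the optimal set (6202 and 5763 of 6793).

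The gene ftz, whose homeodomain protein activates targets together with the nuclear receptor Ftz-F1, lies at chr3R:6864324-6866244 on the plus strand. Its promoter summit, at -79, had a pooled signal of 72.9 (rank 12432) and was listed by replicate 2 alone, with a signal of 51.3. The strongest of its 8 permissive summits, at +5215, reached 100.3, with 47.7 in replicate 2, 42.4 in replicate 3 and none in replicate 1. The nearest optimal summit to ftz lay 11.1 kb upstream and 3251 bp upstream of a start of its Hox neighbour Scr, at 1.58 ± 0.528 on the relative scale (n = 3). The gene odd, a zinc finger repressor, lies at chr2L:3604224-3606756 on the minus strand and had no promoter summit in either set. Its nearest permissive summit upstream, at -522, reached 78.2. Its 2 optimal summits lay beyond the 3′ end, at +7307 and +8060. The first had signals of 30.6, 60.8 and 60.1 in replicates 1, 2 and 3, and the second had 66.5, 31.2 and 75.6. The replicates disagreed on which of the 2 was stronger: +8060 led in replicates 1 and 3, and +7307 in replicate 2.

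Among the genes usually placed later, prd, a Pax protein with a paired domain and a homeodomain, lies at chr2L:12082995-12085827 on the minus strand and had the fewest permissive summits. All 4 lay beyond its 3′ end, and none lay in its promoters or its span. The strongest reached 98.3 and lay 44 bp from the start of CG14947. The nearest optimal summit lay 17.1 kb downstream, 898 bp downstream of the nearest start of firl, at 0.518 ± 0.100 on the relative scale (n = 3).

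The neighbours slp1 and slp2 (sloppy paired) encode forkhead-domain repressors that act largely in common. They lie at chr2L:3825675-3827099 and chr2L:3836840-3839185, both on the plus strand. The strongest peak of the pair lay between them, 6850 bp downstream of the slp1 start and 4315 bp upstream of the slp2 start (summit 3832525, pooled signal 1137.7, rank 314). Its signals in replicates 1, 2 and 3 were 359.2, 405.0 and 365.4, and it ranked 231, 551 and 239. All 3 replicates thus placed it among their strongest regions. No transcript start of any annotated gene was nearer than that of slp2.

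The promoter summit of slp1, at -145, had a pooled signal of 273.0 (rank 3348). Replicate 1 gave 21.2, replicate 2 gave 164.1 and replicate 3 gave 57.7, so its relative signal ran between 0.261 and 1.33, at 0.758 ± 0.536 (n = 3). Replicate 1 had a stronger region, 38.3, within 250 bp. The third slp1 summit, at +2216 downstream of the gene, varied less: 73.6, 67.8 and 84.1, or 0.817 ± 0.238 on the relative scale (n = 3). The promoter summit of slp2, at -197, was permissive only (123.0, rank 7771) and was listed by replicate 2 alone, with 107.3 (rank 3784). The promoter summits of slp1 and slp2 therefore fell on either side of the lowest optimal signal, 141.8. Just inside the threshold lay odd +7307 with 146.8 and run -122 with 155.5, and just outside it lay slp2 +8366 with 128.7, odd +5691 with 124.4 and slp2 -197 with 123.0.

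The gene opa, a zinc finger activator of the Zic family that is transcribed in a broad domain and not in stripes, is the longest of the pair-rule genes (chr3R:4852813-4869979, plus strand). Its promoter summit, at -279 (position 4852534 in the interval 4852304 to 4852784), had the highest pooled signal of all summits near pair-rule genes, 1217.0 (rank 269). Its signals were 267.5, 666.3 and 279.2 in replicates 1, 2 and 3, with ranks of 434, 180 and 412. The peak was thus among the strongest of every replicate, with the highest relative value in replicate 2. A second summit of the same interval, at -70, was permissive only in the pooled list (45.3) and was listed by replicate 2 alone (111.1). The other optimal summit of opa, at -5853, had signals of 45.1, 49.0 and 61.1, and a relative signal of 0.559 ± 0.165 (n = 3). The span of opa held 2 intronic permissive summits, of 88.5 and 51.7, and no optimal one.

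Presence in the replicates was read by rank, as a summit within 100 bp among the 6793 strongest regions of a replicate list. Of the 12 optimal summits at pair-rule genes, 5 were present in all 3 replicates (41.7%, exact 95% interval 15.2 to 72.3), 6 in 2 and 1 in 1. Over all optimal peaks the share present in all 3 was 62.1%, within that interval. With no limit on rank, 11 of the 12 were found in all 3 lists (91.7%, against 86.1% of all optimal peaks), the exception being eve -137. The count of pair-rule genes with an optimal promoter summit depended on which libraries were read. It was 3 (run, slp1 and opa) when presence in replicates 2 and 3 was asked for, 2 (eve and opa) for replicates 1 and 2, and 1 (opa) for replicates 1 and 3, against 19.6%, 20.5% and 20.1% of all protein-coding genes. The opa promoter was the single pair-rule promoter present in all 3 replicates by rank.

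The order of ranks between replicates was counted after it had been noticed in these data. All 4 optimal promoter summits of pair-rule genes (eve, run, slp1 and opa) ranked highest in replicate 2, against 42.0% of all optimal promoter summits. The exact 95% interval, 39.8 to 100%, holds that share even at the highest count possible. With 4 summits it therefore cannot set the count apart from the background, and no conclusion is drawn. A summit missing from a list was given the last rank there, as eve -137 was in replicate 3. Of the 8 optimal summits away from promoters, 3 ranked highest in replicate 2 (against 34.2% of all such summits) and 4 ranked lowest there (against 46.2%), shares close to their backgrounds. Whether promoter and other summits at pair-rule genes differ in this order was not tested. How replicate 2 differed in depth or handling is not known from the labels, and its part in the promoter counts was not tested beyond the counts without it.

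**Figure D4:**
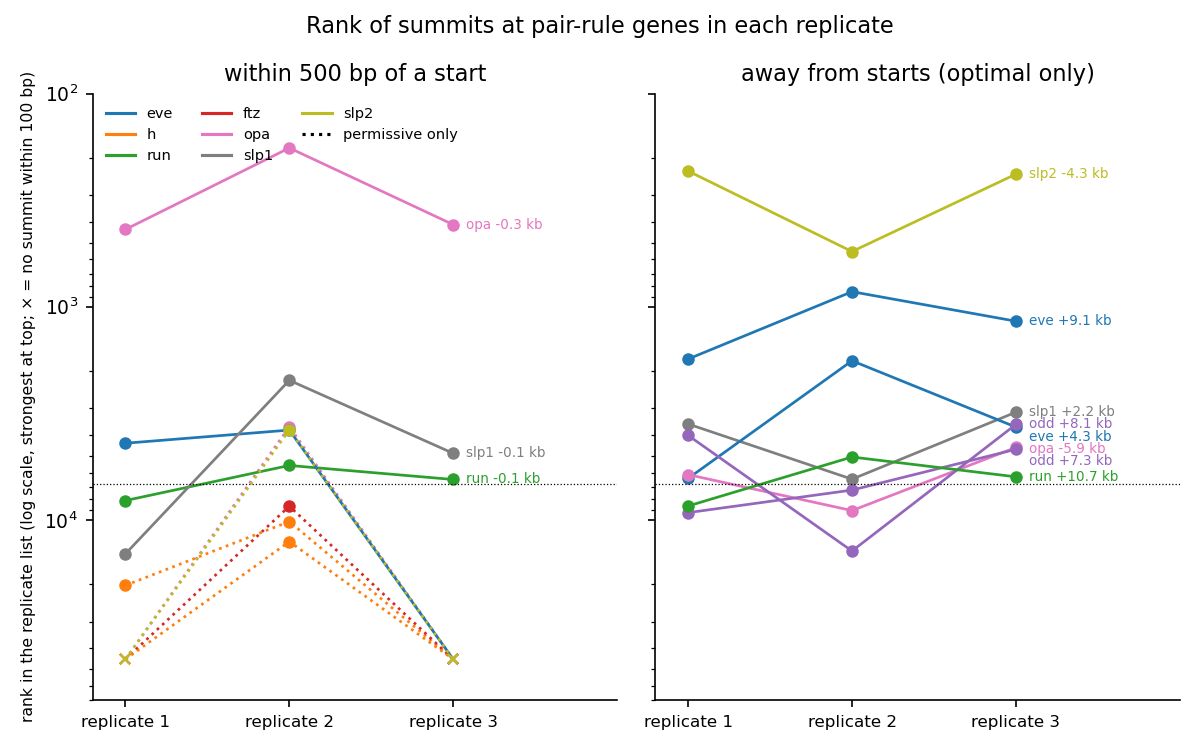
Rank of each summit in the 3 replicate lists (log scale, strongest at the top) for promoter summits (left) and for optimal summits away from promoters (right). Solid lines are optimal and dotted lines permissive-only summits, a cross marks a replicate with no summit within 100 bp, and the black dotted line is rank 6793; the 4 solid lines on the left are highest in replicate 2, and 4 of the 5 dotted ones have a rank in replicate 2 alone.

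What the 12 windows shared in sequence was read with motifs searched on both strands in 201 bases at each summit. The whole NRF-1 palindrome was in none of the 12 windows, a count for which the exact 95% interval reaches 26.5%, against 1.94% of all optimal summits and 0.208% of all promoters. With 1 mismatch allowed it was in 2 (eve +9133 and odd +7307; 16.7%, against 10.5% of all optimal summits and 1.86% of all promoters). The single arm TGCGC was in 10 of 12 (83.3%, exact 95% interval 51.6 to 97.9), against 41.6% of all optimal summits, 27.6% of permissive-only summits and 21.8% of all promoters. It was missing from opa -5853 and slp1 +2216. Arms that overlap on opposite strands were each counted, and the single arm and the mismatch were added after the data had been seen. The exact intervals take the 12 windows as independent, although several lie at the same gene. The 12 windows were also richer in G and C, with a median of 50.5% against 39.3% for all optimal summits and 37.3% for all promoters, and the 2 without an arm had 37.3% and 25.4%. The part of base composition in the share with an arm was not tested.

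Motifs of other embryonic factors were searched in the same 12 windows. The motifs differ in length and in the letters allowed, so each count is read against its own background and not against the other motifs. The GAGA factor motif GAGAG was in 4 of 12 windows (33.3%, against 31.9% of all optimal summits and 22.2% of all promoters). The motif of Zelda, an activator of the early zygotic genome, was searched as CAGGTA and was in 2 (run -122 and slp1 -145). That is 16.7%, against 3.62% and 4.27%, both inside the exact 95% interval of 2.09 to 48.4%. With 250 bp on either side it was 16.7%, against 9.76% and 10.9%. The E-box CANNTG was in 7 (58.3%, against 62.9% and 61.2%). The DREF motif TATCGATA was in none (exact 95% interval up to 26.5%), against 3.46% and 7.39%.

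Genes that regulate the pair-rule genes, work with them, resemble them or are their targets were read from 4 lists of 39 distinct genes. The lists were chosen with earlier results of these data known, so no conclusion is drawn from their counts. Of the 39 genes, 20 had an optimal promoter summit, against 26.4% of all protein-coding genes. A permissive one was at 27, against 46.8%, and 31 had an optimal summit within 10 kb, against 71.4%. Among maternal, gap and other early regulators, 7 of 10 had an optimal promoter summit. They were led by D (Dichaete, a Sox factor) at 2.12 ± 0.520 on the relative scale, zld (Zelda) at 1.42 ± 0.439 and hb (the gap gene hunchback) at 1.22 ± 0.509 (n = 3 each). The gap genes kni and tll had none. Among cofactors and partners it was 3 of 5: gro, the corepressor Groucho of h, eve and other repressors, at 3.59 ± 1.25, ftz-f1, the partner of ftz, at 2.88 ± 0.607, and Bgb, a partner of Runt proteins, at 0.781 ± 0.341 (n = 3 each). The partners CtBP and Bro had no optimal promoter summit, and all 5 had an optimal summit within 10 kb.

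Among relatives of the pair-rule genes by protein family, 6 of 18 had an optimal promoter summit, against 26.4% of all protein-coding genes. No interval was computed for this or the other lists. The strongest were at fkh, the forkhead gene (4.62 ± 1.41), bowl, of the odd family (2.81 ± 0.138), and Poxm, a Pax gene (2.26 ± 0.727; n = 3 each). Among segment polarity targets it was 4 of 8, against the same 26.4%. The strongest were at en (engrailed, a homeodomain gene that ftz and prd activate in stripes), at 6.52 ± 1.31, ptc (the Hedgehog receptor patched) at 1.88 ± 0.770 and mid (midline, a T-box gene) at 1.81 ± 0.424 (n = 3 each). The targets wg, hh, gsb and gsb-n had none. The strongest pair-rule peaks, 4.01 ± 0.639 between slp1 and slp2 and 4.0 ± 1.2 at the opa promoter, stand beside 6.52 ± 1.31 at the en promoter, a difference that was not tested. No peak at these genes says which of them Ewg regulates, since no transcript was measured.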

How the data were processed

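Processed peak lists of 3 replicates in 1 group, of the replicates pooled, and the optimal set, all on dm6, were used. The signal of each region is the authors' deposited value, per the labels and files; no label names its normalization, the aligner or the peak caller. The deposited q-values, as −log10, reach a ceiling and support no result. Lists on dm3 were not used. Read depth is not given, so precision rests on the spread over replicates and on counts of genes or summits. Exact intervals are Clopper-Pearson and take genes or summits as independent, although several summits share a locus.

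Ranks follow the deposited signal within each list. A replicate summit within 100 bp of a pooled summit was taken as the same. Relative signal is replicate signal over that list's median at 5852 optimal peaks found in all 3 lists. Genes and transcript starts are from Ensembl release 115, chromosomes X, 2L, 2R, 3L, 3R and 4; sequence is from the RefSeq dm6 assembly. The promoter comparison windows for motifs are centred 100 bp upstream of the outermost start.

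No test was run: with 1 group, counts stand beside the share over all genes, and levels carry the SD over replicates. All 9 pair-rule genes are named by every summit listed; of each further list, up to 3 genes with the strongest optimal promoter peak are named, plus genes whose start is nearest to a summit. Members without such a summit were named after their values were seen. The members and lists were chosen with earlier results of these data known. Matching and motif code was tested on simulated data. Alternatives changed windows, rank limits, peak strength and replicates. Software was scipy 1.17.1, pandas 2.3.3, numpy 2.4.6 and, for figures, matplotlib 3.10.9, under Python 3.11.15.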

Additional observations from a re-analysis of the deposited data

How the results depend on the processing

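Of 72 alternative values, 52 stayed within the limits set for them and 20 moved. Taking the stronger 50% of the optimal peaks left 2 pair-rule genes with a promoter summit (opa and slp1, against 15.8% of all genes), 0 with a summit in the span (against 9.58%) and 5 summits within 10 kb, by construction with fewer peaks. A reach of 20 kb gave 29 summits and at least 1 at all 9 genes, against 84.7% of all genes. Leaving out each replicate gave 1 to 3 genes with a promoter summit, against 19.6% to 20.5% of all genes. It gave 0 to 1 with a summit in the span, against 12.3% to 12.5%, and 6 to 8 summits within 10 kb. The lowest values came without replicate 2 for promoters (opa alone), without replicate 2 or 3 for the span and without replicate 3 for summits. The cause was not tested. Without a rank limit 91.7% of summits were in all 3 replicates, against 86.1% of all optimal peaks. Dividing by the 90th percentile changed the scale by construction, giving 1.38 for both slp1 and slp2, 1.35 for opa, 0.682 for eve, 0.230 for odd and 0.183 for run, in the same order. Without replicate 1 or 3 the opa peak (4.35 and 4.34) lay above the slp1 to slp2 peak (3.81 and 3.84). Without replicate 2 it lay below (3.30 against 4.38), so the order of these peaks depended on replicate 2. A promoter window of 250 bp left 3 genes, without opa, against 21.8% of all genes. With 50 bp on either side the arm TGCGC was in 75% of windows, against 29.1% of all optimal summits, and GAGAG in 8.33%, against 18.7%. With 250 bp the arm was in 100%, against 66.1%, and GAGAG in 66.7%, against 57.9%. Counts of permissive promoters (6 in the stronger 50% of the list, against 38.7% of all genes) kept within limits. So did those of the listed regulators and targets (16 to 22, against 19.6% to 30.0% of all genes). No paired analysis was possible because the series has 1 group. Read depth is unknown, and 9 genes give wide intervals.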

Other observations

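The odd family of zinc finger genes, to which the pair-rule gene odd belongs, differed among its members at the promoter. The relative bowl had an optimal promoter summit at -184 with relative signals of 2.89, 2.65 and 2.89 in replicates 1, 2 and 3, and 7 optimal summits within 10 kb. The relative drm had one at -213 with 0.732, 1.11 and 0.911. The relative sob had a permissive promoter summit alone, with 3 optimal summits within 10 kb, and odd had no promoter summit in either set, with 2 optimal summits within 10 kb. All 4 genes lie on chromosome arm 2L. Members were chosen by protein family and the differences between them were not tested.

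The Pax relatives of prd also differed. Poxm and Poxn had optimal promoter summits, at 2.26 ± 0.727 and 1.42 ± 0.588 on the relative scale (SD, n = 3 each), whereas ey had a permissive promoter summit alone and gsb, gsb-n and prd had neither kind. Of the forkhead relatives of slp1 and slp2, fkh (4.62 ± 1.41) and croc (1.87 ± 0.259; n = 3 each) had optimal promoter summits and bin had none. The relatives of run (RunxA, RunxB and lz), of h (dpn, E(spl)m8-HLH and Hey) and of opa (lmd) had no optimal promoter summit. Among these, lz, E(spl)m8-HLH and Hey had a permissive one.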
